A study of Mus musculus with 5 samples.

Results

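The atypical chemokine receptors Ackr1, Ackr2, Ackr3, Ackr4 and Ccrl2 were followed in lymph node lymphatic endothelial cells (LECs), sorted from mice. The 5 genes were taken by symbol from the 27843 genes of the count table, and all 5 passed the filter on low counts. The knockout group was 2 libraries from Ccl19 Cre Rankl flox/flox mice, in which a Cre driven by Ccl19 removes the cytokine RANKL from stromal cells of the lymph node. The control group was 3 libraries from Rankl flox/flox mice without the Cre. All mice were 8 weeks old, on a C57BL/6 background, and all carried the floxed Rankl allele. LECs carry the RANKL receptor RANK and are not the cells in which this Cre is meant to act. How many animals went into a library, and which animals shared a litter, is not given in the sources used here, so p-values measure the spread between these libraries.

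Atypical chemokine receptors resemble chemokine receptors but do not couple to G proteins in the usual way, and most of them take up bound chemokine and deliver it for degradation. ACKR2 clears inflammatory CC chemokines and is a known marker of lymphatic endothelium. ACKR3 clears CXCL12 and the peptide adrenomedullin. ACKR4 clears CCL19, CCL21 and CCL25, and in mouse lymph nodes it marks LECs of the ceiling of the subcapsular sinus, the lymph-filled space under the capsule. ACKR1 binds many inflammatory chemokines without degrading them and is known from venules and red cells. CCRL2 binds chemerin and presents it to the signalling receptor CMKLR1.

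Ackr3, Ackr4 and Ackr1 were higher in LECs from knockout mice, by 2.58-fold, 2.35-fold and 2.22-fold. Ackr2 and Ccrl2 did not pass the test, at 1.07-fold and 0.868-fold. Of all 15874 genes tested, 3.25% were higher in knockout at an adjusted p under 0.05 and 3.99% were lower, 7.24% in either direction (edgeR quasi-likelihood test with Benjamini-Hochberg adjustment over all genes). Among the 5 receptors 3 were higher and 0 lower. The count of lower receptors was also 0 at an unadjusted p under 0.05, with DESeq2 and with limma-voom. In 3 of the 5 both knockout libraries lay above all control libraries, as they did in 22.8% of the genes tested. CPM is a gene's count relative to its library's total, scaled by TMM factors that adjust for differences in RNA composition. In RNA from sorted pools, more receptor RNA per cell and a larger share of cells that carry the receptor cannot be told apart.

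**Figure D1:**
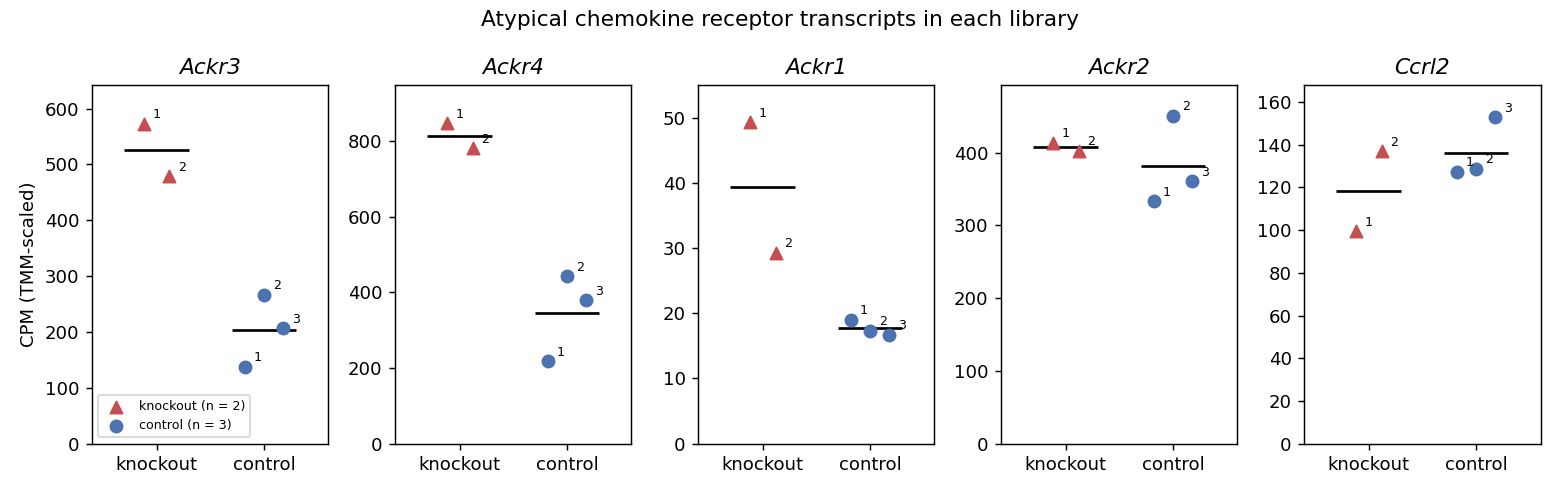
CPM of the 5 receptors, 1 point per library with its replicate number (triangles, 2 knockout libraries; circles, 3 control libraries) and a bar at each group mean; vertical axes start at 0 and differ between genes. Ackr3, Ackr4 and Ackr1 have both knockout libraries above all controls, while Ackr2 and Ccrl2 overlap.

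The libraries held 53301671 and 59725200 reads in knockout and 52839375 to 70171307 reads in control, and each receptor had at least 869 reads in every library. The LEC markers Prox1 and Lyve1 averaged 867.9 and 3051.9 CPM in knockout and 1459.1 and 4531.4 CPM in control, so LEC transcripts were abundant in both groups. The share of LECs in each sort was not measured. Prox1, the transcription factor that defines lymphatic identity, was lower in knockout, at -0.75 ± 0.11 on the log2 scale (SE; adjusted p = 0.019, edgeR quasi-likelihood), and Lyve1 did not pass (-0.57 ± 0.18). Pecam1 (CD31), used for the sort, averaged 1329.5 CPM in knockout and 1329.8 CPM in control. Pdpn (podoplanin), also used for the sort, averaged 112.3 CPM in knockout and 96.5 CPM in control and did not pass (log2 fold change 0.22 ± 0.12, SE). Ptprc, which encodes CD45, the leukocyte protein used to gate cells out, stood at 2.39 to 2.89 CPM in knockout and 2.15 to 2.73 CPM in control. Tnfsf11, which encodes RANKL, had 9 and 0 reads in knockout and 27, 13 and 9 reads in control. These reads do not check the deletion, which lies in other cells.

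Reads are not marked by strand, so the positions of the receptor genes bear on their counts (GENCODE M21 on mm10). Ackr3 (chromosome 1, 90203980 to 90216751), Ackr2 (chromosome 9, 121898355 to 121911074) and Ccrl2 (chromosome 9, 111054486 to 111057519) overlap no other annotated gene. All 5380 exon bases of Ackr4 (chromosome 9, 104084157 to 104126933, minus strand) lie inside Acad11 on the opposite strand, and 479 of them, 8.9%, are also Acad11 exon. Ackr1 (chromosome 1, 173331886 to 173333750) shares 361 exon bases, 25.7% of its own, with Cadm3. Reads on those shared bases cannot be assigned to one gene.

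The upstream windows of Ackr3, the receptor with the largest fold change, and of Ackr2, the one with the fold change nearest to 0, are shown because these 2 windows of 250 bases hold no annotated exon. They end at the base before the RefSeq transcription start (GRCm38.p6), with Ackr3 at chr1:90203730-90203979 and Ackr2 at chr9:121898105-121898354, both on the plus strand and written 5′ to 3′. Capitals mark matches on either strand to 4 motifs, with N for any base: NF-kB (GGG, then any 2 bases, then TTTCC), AP-1 (TGANTCA), ETS (AGGAAG) and the TATA box (TATAAA).
Ackr3: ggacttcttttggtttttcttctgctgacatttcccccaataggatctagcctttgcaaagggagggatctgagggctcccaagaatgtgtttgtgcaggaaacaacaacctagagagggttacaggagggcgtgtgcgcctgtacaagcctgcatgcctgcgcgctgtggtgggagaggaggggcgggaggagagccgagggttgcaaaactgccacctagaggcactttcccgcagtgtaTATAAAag
Ackr2: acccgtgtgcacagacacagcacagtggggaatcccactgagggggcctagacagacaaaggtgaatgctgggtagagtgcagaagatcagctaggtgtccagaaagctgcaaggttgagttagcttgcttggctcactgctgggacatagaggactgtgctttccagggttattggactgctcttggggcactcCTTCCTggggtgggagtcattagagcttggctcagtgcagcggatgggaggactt
The Ackr3 window held 1 match, to the TATA box letters, 8 to 3 bases before the start, and its function was not tested. Of 32851 windows of the same length, 12.4% hold those letters. The Ackr2 window held 1 match, to the ETS motif on the minus strand, which 29.5% of them hold. Neither window held the NF-kB or the AP-1 letters, found in 1.41% and 6.75% of windows. No match says no more than that these letters are not in the window. Other forms of these motifs were not searched, so a site written differently can be present.

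Ackr3 had 572.9 and 478.5 CPM in knockout libraries 1 and 2, against 137.4, 266.6 and 207.0 CPM in control libraries 1, 2 and 3. Both knockout libraries were higher than every control, and control 1 was the lowest. Ackr3 averaged 525.7 ± 66.7 CPM in knockout (SD, n = 2) and 203.7 ± 64.6 CPM in control (SD, n = 3). The log2 fold change, knockout minus control, was 1.37 ± 0.25 (SE; 95% interval 0.77 to 1.97; edgeR quasi-likelihood, Benjamini-Hochberg adjusted p = 0.029). Ackr3 kept its call without control 1 (log2 fold change 1.15) and without control 2 (1.61). It lost the call without control 3 (1.38), without knockout 1 (1.23) and without knockout 2 (1.49), each at a fold within the interval.

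Ackr4 had 847.4 and 781.4 CPM in knockout libraries 1 and 2, against 218.2, 442.5 and 380.3 CPM in control libraries 1, 2 and 3. The groups did not overlap, and control 1 was again the lowest and control 2 the highest of the controls. Ackr4 averaged 814.4 ± 46.7 CPM in knockout (SD, n = 2) and 347.0 ± 115.8 CPM in control (SD, n = 3), and its log2 fold change was 1.23 ± 0.27 (SE; 95% interval 0.60 to 1.87; edgeR quasi-likelihood, Benjamini-Hochberg adjusted p = 0.043). Its call was the closest of the 3 to the threshold. It held without control 1 (log2 fold change 0.99) and was lost without control 2 (1.44), control 3 (1.30), knockout 1 (1.17) and knockout 2 (1.28). Acad11, the gene that encloses Ackr4, had 24.9 and 28.6 CPM in knockout and 27.6, 24.8 and 29.3 CPM in control, at -0.02 ± 0.12 on the log2 scale (SE, adjusted p = 0.92 by edgeR). The ratio of Ackr4 reads to Acad11 reads was 34.1 and 27.3 in knockout and 7.92, 17.9 and 13 in control, so reads counted to Acad11 were few beside those of Ackr4. Reads from unspliced Acad11 RNA could have been counted to Ackr4 and were not measured.

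Ackr1 was the lowest of the 5 receptors per kilobase of exon in every library. It had 49.3 and 29.3 CPM in knockout libraries 1 and 2, against 19, 17.3 and 16.7 CPM in control libraries 1, 2 and 3. The controls lay close together and knockout 1 stood well above knockout 2. Ackr1 averaged 39.3 ± 14.2 CPM in knockout (SD, n = 2) and 17.7 ± 1.15 CPM in control (SD, n = 3), and its log2 fold change was 1.15 ± 0.21 (SE; 95% interval 0.66 to 1.65; edgeR quasi-likelihood, Benjamini-Hochberg adjusted p = 0.027). Without knockout 1 the log2 fold change was 0.72 and without knockout 2 it was 1.48. Each of these fits has 1 knockout library, assumed to vary like the controls, so their passing the threshold leaves out the difference between the knockout libraries. The call was lost without control 1 (1.21), control 2 (1.14) and control 3 (1.11). Cadm3, which shares exon bases with Ackr1, had 48 and 43 reads in knockout and 21, 6 and 1 reads in control. Its groups did not overlap, and it did not pass (log2 fold change 2.49 ± 0.83, SE). Ackr1 had 2700 and 1704 reads in knockout and 1346, 1082 and 869 reads in control, so Cadm3 counts were small beside it in each library.

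Ackr2 had 414.0 and 402.5 CPM in knockout libraries 1 and 2, against 333.2, 450.8 and 360.9 CPM in control libraries 1, 2 and 3. Both knockout libraries lay within the range of the controls. It averaged 408.3 ± 8.11 CPM in knockout (SD, n = 2) and 381.6 ± 61.5 CPM in control (SD, n = 3), and its log2 fold change was 0.10 ± 0.14 (SE; 95% interval -0.24 to 0.43; edgeR quasi-likelihood, Benjamini-Hochberg adjusted p = 0.72). The interval of Ackr2 ended below the intervals of Ackr3, Ackr4 and Ackr1. The difference between receptors was itself not tested.

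Ccrl2 had 99.6 and 137.0 CPM in knockout libraries 1 and 2, against 127.4, 128.8 and 152.9 CPM in control libraries 1, 2 and 3. Knockout 1 was the lowest library and knockout 2 lay among the controls. It averaged 118.3 ± 26.5 CPM in knockout (SD, n = 2) and 136.3 ± 14.3 CPM in control (SD, n = 3), and its log2 fold change was -0.20 ± 0.16 (SE; 95% interval -0.57 to 0.17; edgeR quasi-likelihood, Benjamini-Hochberg adjusted p = 0.46). The value was -0.46 without knockout 2 and 0.00 without knockout 1, and neither passed.

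**Figure D2:**
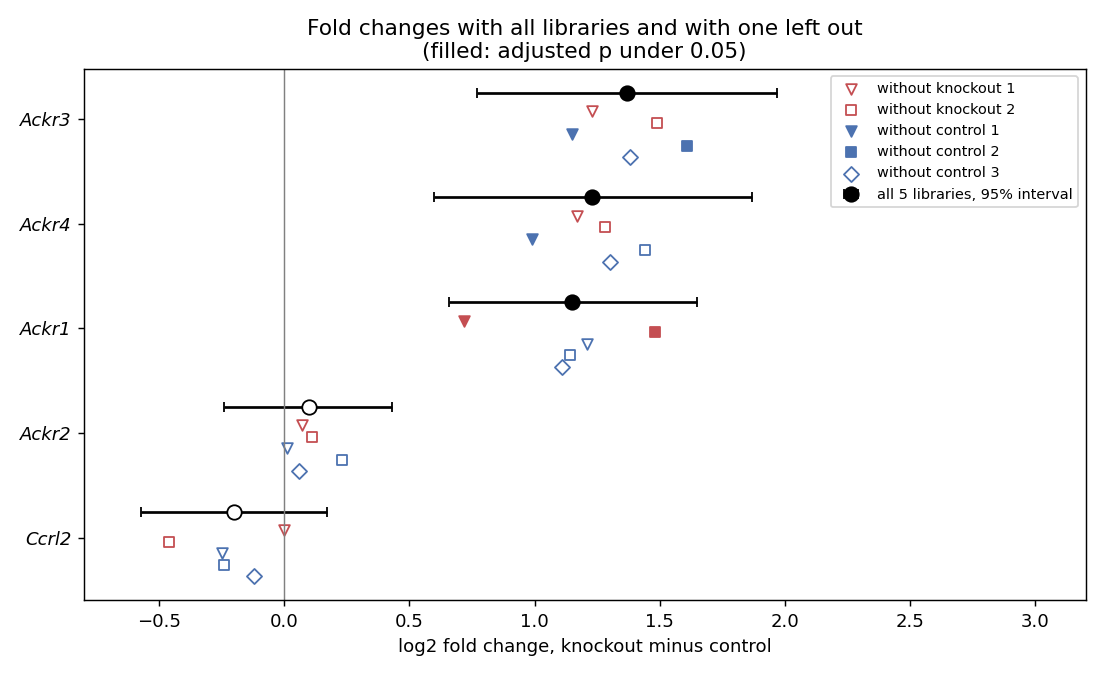
Log2 fold change, knockout minus control (horizontal axis), of each receptor with all 5 libraries (black, 95% interval) and with 1 library left out (red, a knockout; blue, a control); filled symbols passed adjusted p 0.05 over all genes. The 3 risen receptors keep values of 0.72 or more in each of these fits, while Ackr2 spans 0.01 to 0.23 and Ccrl2 -0.46 to 0.00 with a library left out.

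Levels of different genes were set side by side as CPM per kilobase of exon. In control LECs Ackr2 was the highest, at 122.0 ± 19.7 CPM per kilobase (SD, n = 3), followed by Ackr4 at 64.5 ± 21.5, Ackr3 at 60.8 ± 19.3, Ccrl2 at 52.5 ± 5.52 and Ackr1 at 12.6 ± 0.82. Ackr4, Ackr3 and Ccrl2 did not differ beyond their spread, while Ackr2 lay above and Ackr1 below them in every control library. In knockout LECs Ackr3 was at 157.0 ± 19.9 CPM per kilobase (SD, n = 2), Ackr4 at 151.4 ± 8.69 and Ackr2 at 130.6 ± 2.59, followed by Ccrl2 at 45.5 ± 10.2 and Ackr1 at 28 ± 10.1, whose spreads met. Ackr3 and Ackr4 did not differ beyond their spread, and both lay above Ackr2 in each of the knockout libraries. On this scale Ackr2 stood above 97.7% of tested genes in both groups. Ackr3 stood above 98.1% of them in knockout and 95.2% in control.

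The length-scaled sum of the 5 receptors was 534.5 and 490.5 CPM per kilobase in knockout libraries 1 and 2, against 250.7, 367.9 and 318.7 in control libraries 1, 2 and 3. Ackr3 made up 32% and 29.1% of that sum in knockout and 16.4%, 21.6% and 19.4% in control. Ackr4 made up 29.5% and 29.6% in knockout and 16.2%, 22.4% and 22.2% in control. The share of Ackr2 was 24.8% and 26.2% in knockout and 42.5%, 39.2% and 36.2% in control. Ackr3 and Ackr4 each held a larger share than Ackr2 in both knockout libraries, and Ackr2 held the largest in all 3 control libraries.

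**Figure D3:**
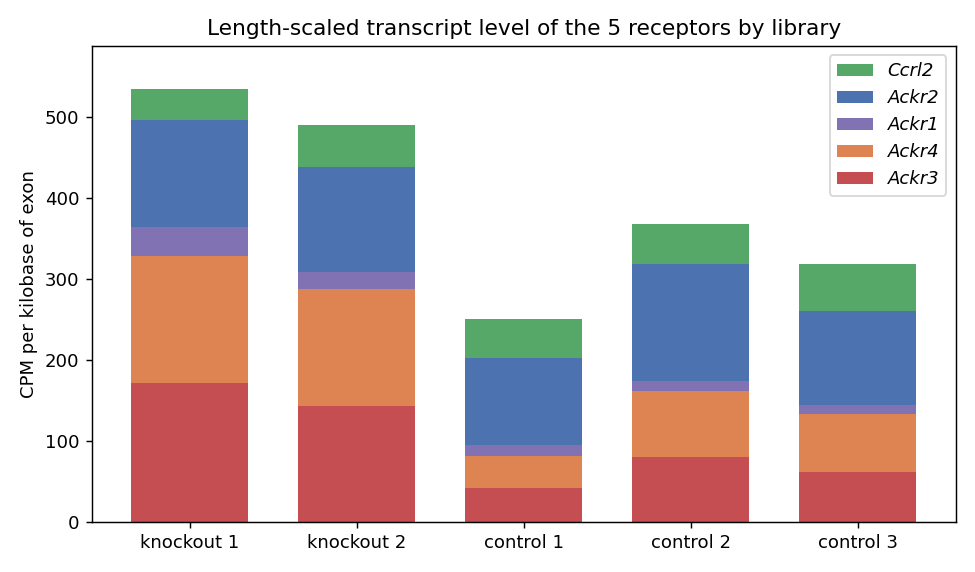
CPM per kilobase of exon (vertical axis) of the 5 receptors, stacked by library, with 2 knockout libraries left of 3 control libraries. The stack is taller in both knockout libraries (534.5 and 490.5) than in any control, and the Ackr3 and Ackr4 segments account for most of the added height.

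Ackr3 and Ackr4 followed each other closely across libraries, also within the control group. The ratio of Ackr3 to Ackr4 in CPM was 0.676 and 0.612 in knockout and 0.63, 0.602 and 0.544 in control. These ratios overlapped between the groups. The ratio of Ackr4 to Ackr2 was 2.05 and 1.94 in knockout and 0.655, 0.982 and 1.05 in control, with no overlap.

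Likeness of pattern was measured as the root mean square difference of log2 CPM, centred on each gene's mean, over the 5 libraries, among tested genes averaging 1 or more log2 CPM, leaving out predicted genes and pseudogenes. Of 10739 such genes, 3 lay nearer to Ackr3 than Ackr4 did (difference 0.101), and 2 lay nearer to Ackr4 than Ackr3 did. The 3 nearest to Ackr3 were Ttc9 (0.0722), the ubiquitin ligase gene Rnf128 (0.0861) and Anxa2 (0.093), which encodes annexin A2. For Ackr4 they were Id1 (0.0883), a transcription regulator induced by BMP signals, Anxa2 (0.0908) and Ackr3. Anxa2 stood at 1750.5 and 1657.6 CPM in knockout and 480.6, 821.4 and 731.4 CPM in control, with control 1 lowest and control 2 highest of the controls, as for Ackr3 and Ackr4. With 5 libraries in 2 groups, likeness rests largely on the group difference that these genes have in common.

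Ackr1 differed from both in its profile, with knockout 1 well above knockout 2. It lay 0.414 from Ackr3 and 0.45 from Ackr4, and 843 and 1234 genes lay nearer to it than those receptors did. Its 3 nearest genes were Scube1 (0.0864), Avpi1 (0.111) and Inhbb (0.112), the activin B subunit. Inhbb stood at 20.2 and 14 CPM in knockout and 8.11, 7.05 and 6.31 CPM in control. For Ackr2, whose profile was nearly flat, the nearest were Zfp213, Zfp597 and the transcription elongation gene Nelfa (0.0284 to 0.0369). For Ccrl2 they were the lymphocyte GTPase gene Gimap5, Zg16 and Pkdcc (0.0215 to 0.0275).

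**Figure D4:**
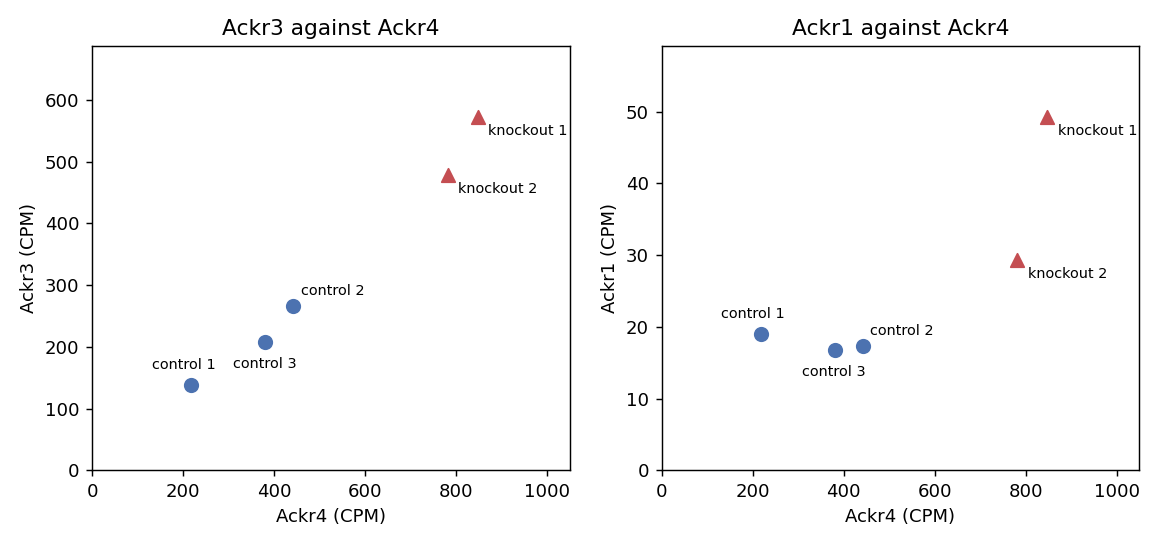
Ackr3 (left) and Ackr1 (right) against Ackr4, in CPM on both axes, 1 point per library (triangles, knockout; circles, control). Ackr3 increases with Ackr4 over all 5 libraries, while Ackr1 stays at 16.7 to 19 CPM over the controls and differs between the knockouts.

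Ackr4 is a marker of the sinus ceiling, and 7 other ceiling markers were measured beside it. Their summed level was 6199.2 and 5236.1 CPM in knockout and 2204.1, 3544.9 and 2819.1 CPM in control, and 3 of them were higher, with a median log2 fold change of 0.91 against 0.00 over all tested genes. The 3 were the water channel gene Aqp1 (2.28 ± 0.24, SE), Anxa2 (1.33 ± 0.21) and the fatty acid carrier gene Fabp4 (1.03 ± 0.14). Cd36, the most abundant of the 7, was at 0.91 ± 0.26 and did not pass. Between 0 and 4 ceiling markers passed with a library left out, with 0 without control 3 and 2 without control 2. Markers of the sinus floor summed to 8320.3 and 11057.2 CPM in knockout and 17023.9, 14467.4 and 16053.0 CPM in control, and 4 of 10 were lower (1 without control 3, and 2 without control 1, control 2 or knockout 1). Blood endothelial markers rose in the same comparison, 8 of 10 of them, with a median log2 fold change of 1.37. Whether the higher ceiling markers came from ceiling LECs was not tested. The part of a changed mix of ceiling and floor cells in the Ackr3 and Ackr4 values was not tested either.

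Markers of the other cells known for ACKR1 were measured beside it. Of 10 blood endothelial markers 8 were higher, with sums of 1574.6 and 1474.2 CPM in knockout and 1025.5, 1011.0 and 979.7 CPM in control, most of it Cldn5 (1115.7 CPM in knockout and 829.7 CPM in control), which did not pass. Esam (0.88 ± 0.09, SE) and Cd34 (1.94 ± 0.23) did. Less abundant markers that passed included Ly6c1 (18.6 CPM in knockout and 2.85 CPM in control), Gpihbp1 (17.1 and 6.92) and Sox17 (4.37 and 0.562). Flt1, like Cldn5, did not pass. Because Cldn5 makes up most of the sum, the sum does not measure the amount of blood endothelial RNA. The 8 became 6 without control 1, 5 without control 2 and 0 without control 3. Of 11 markers of venules and high endothelial venules 2 were higher, Vwf (1.09 ± 0.24, SE) and Ubd (0.59 ± 0.12), both named after their values were seen. The venule sums overlapped, at 7122.0 and 7891.2 CPM in knockout and 7559.9, 6367.9 and 6998.5 CPM in control, and the 2 calls were lost without knockout 1 and without any one control. Most of that sum was Plvap, Lrg1 and Enpp2, which averaged 735.8 to 3207.3 CPM in knockout and 1118.8 to 2688.2 CPM in control, and none of the 3 passed. Red cell transcripts were near 0, with globin and other erythroid markers summing to 4.22 and 0.0344 CPM in knockout and 2.14, 0.513 and 0.674 CPM in control. The sort took podoplanin+ cells. How completely that gate removed blood endothelial cells, and the part of blood endothelial RNA in the Ackr1 value, was not tested.

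Markers of other cells that can carry these receptors or lie near LECs were measured too. Neutrophil markers, of interest because CCRL2 is known from myeloid cells, summed to 2.01 and 0.516 CPM in knockout and 2.15, 0.721 and 10.2 CPM in control, with Ly6g at 0 reads. Macrophage and monocyte markers summed to 397.2 and 526.5 CPM in knockout and 548.2, 296.5 and 416.4 CPM in control, most of it Cd14, at 448.8 CPM in knockout and 400.4 CPM in control. Among them Adgre1 was higher (15 and 20 reads in knockout, 0 in each control library), and Csf1r (-2.58 ± 0.53, SE) and Mpeg1 (-2.27 ± 0.36) were lower. The Adgre1 call was lost with any 1 library left out, and the lower calls without any 1 control. Dendritic cell markers summed to 276.4 and 317.4 CPM in knockout and 289.7, 329.1 and 360.0 CPM in control. Most of it was Zbtb46, at 280.3 CPM in knockout and 310.0 CPM in control, while Itgax, Flt3 and Xcr1 stayed under 1 CPM in every library. Because Cd14 and Zbtb46 make up most of these macrophage and dendritic cell sums, the sums do not measure how many such cells were present. Markers of B cells, which can carry ACKR3, summed to 38.2 and 39.6 CPM in knockout and 28.1, 14 and 30.8 CPM in control, with no overlap, and Cd79b, the highest of them, did not pass (0.84 ± 0.23). Fibroblastic reticular cell markers summed to 1060.8 and 465.7 CPM in knockout and 466.9, 472.3 and 322.1 CPM in control. Knockout 1 lay above the rest, as for Ackr1. Knockout 2 lay within the range of the controls, unlike Ackr1, which was above all controls in both knockout libraries. Most of the fibroblastic reticular sum was Dcn, at 0.98 ± 0.31, which did not pass. The sort took CD31+ CD45- cells. How completely these gates removed fibroblastic reticular cells and leukocytes, and the part of these cells in the receptor values, was not tested.

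Of the 3 ACKR4 ligands in the table Ccl21a was higher. It stood at 661.4 and 141.7 CPM in knockout and 28.9, 34 and 24.2 CPM in control (log2 fold change 3.79 ± 0.57, SE). Its call was lost without each control library and with no filter on low counts. Without knockout 1 the log2 fold change was 2.28, and that fit takes its spread from the controls alone, although the knockout libraries differed widely. Near-identical copies of this gene lie beside it, so its level is uncertain. Because Ccl21a differed by more than Ackr4 did, the ratio of Ackr4 to Ccl21a in CPM was lower in knockout, at 1.28 and 5.51, against 7.55, 13 and 15.7 in control. Ccl19 had 2.79 and 1.96 CPM in knockout and 4.65, 1.86 and 3.52 CPM in control, and Ccl25 had 2.26 and 2.27 CPM in knockout and 1.49, 2.05 and 2.06 CPM in control. Neither passed, and the median of the 3 was 0.28.

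The ligands of ACKR3 did not pass the test. Cxcl12 had 42.1 and 49.5 CPM in knockout and 28.3, 26.1 and 15.6 CPM in control, with no overlap, at 0.97 ± 0.24 on the log2 scale (SE; adjusted p = 0.058, edgeR quasi-likelihood). Adm, which encodes adrenomedullin, had 30.6 and 45.6 CPM in knockout and 29, 27.4 and 28.8 CPM in control, a log2 fold change of 0.42 ± 0.17. Of the 3 ligands tested, 0 passed the edgeR test, while 2 were higher at an unadjusted p under 0.05, 1 with DESeq2 and 0 with limma-voom. Cxcr4, the signalling receptor of CXCL12, had 59 and 31 reads in knockout and 42, 9 and 11 reads in control. Calcrl and Ramp2, which form the adrenomedullin receptor, stood at 328.6 and 285.3 CPM in knockout and at 418.2 and 241.7 CPM in control. Neither passed, at log2 fold changes of -0.35 ± 0.17 and 0.24 ± 0.09.

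Of 8 ACKR1 ligands tested, Ccl7 passed and was higher, and it was likewise the 1 of 7 ACKR2 ligands that passed. Ccl7, a monocyte attractant, had 799.4 and 686.0 CPM in knockout and 526.3, 481.5 and 430.5 CPM in control, at 0.63 ± 0.12 on the log2 scale (SE; adjusted p = 0.033, edgeR quasi-likelihood). Its call was lost without each control (0.56 to 0.70) and without knockout 1 (0.51). Ccl2, also a monocyte attractant, had 2855.2 and 2391.1 CPM in knockout and 1995.1, 1676.9 and 1605.2 CPM in control, at 0.58 ± 0.14 (adjusted p = 0.057, edgeR quasi-likelihood). The neutrophil attractant Cxcl1 had 408.2 and 784.5 CPM in knockout and 876.2, 658.4 and 795.4 CPM in control, and the groups overlapped. Ccl17 had 0 reads in every library. The median log2 fold change was 0.60 over the ACKR1 ligands and 0.17 over the ACKR2 ligands. The ACKR1 ligands did not move as a set, with Cxcl1 at -0.38, Cxcl2 at -0.25 and Ccl5 at 2.23. Ccl5 had 383 and 10 reads in knockout and did not pass. Rarres2, which encodes the CCRL2 ligand chemerin, had 5.35 CPM in each knockout library and 3.75, 3.24 and 2.56 CPM in control and did not pass with edgeR (log2 fold change 0.75 ± 0.22, adjusted p = 0.086). It was higher at an unadjusted p under 0.05 and with DESeq2, and not with limma-voom.

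Signalling receptors for the same chemokines had few reads in these sorts, at most 8.03 CPM in any library. Of 14 receptor genes in the table, which include Calcrl and Ramp2, 9 passed the filter. Ccr7, which shares CCL19 and CCL21 with ACKR4, had 2.94 and 8.03 CPM in knockout and 5.08, 2.26 and 2.79 CPM in control. Cxcr3 had 3.34 and 5.38 CPM in knockout and 3.96, 2.15 and 3.14 CPM in control. Both overlapped between the groups. Ccr2, the receptor of CCL2 and CCL7, was the 1 gene of the list that passed. It had 0 reads in both knockout libraries and 21, 14 and 22 reads in control, at least 11.6-fold lower against a floor of 3 counts over the knockout group, and its call was lost without each control, while DESeq2 gave it no adjusted p. Cmklr1, the signalling partner of CCRL2, had 15 and 5 reads in knockout and 1, 1 and 4 reads in control and was not tested. The median log2 fold change of the list was 0.24, also with Ccr2 at its bound.

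Among arrestins and receptor kinases, which bind and phosphorylate such receptors after ligand, Arrb1 was the 1 of 6 that passed. It had 183.5 and 162.5 CPM in knockout and 289.1, 259.7 and 239.0 CPM in control, a log2 fold change of -0.60 ± 0.11 (SE; adjusted p = 0.032, edgeR quasi-likelihood). Its value was -0.53 to -0.67 without 1 control, and the call was lost without each of the 3. Arrb2 (-0.55 ± 0.14) and Grk3 (-1.29 ± 0.31) had no overlap between the groups and did not pass, and 3 genes of the list were lower with DESeq2. Grk2, Grk5 and Grk6 lay between -0.20 and 0.11. The median was -0.37.

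Of 18 clathrin, adaptor and Rab genes of endocytosis and recycling, Cltb, a clathrin light chain, passed, at 97.4 and 117.6 CPM in knockout and 68.2, 75.3 and 77.6 CPM in control (log2 fold change 0.54 ± 0.11, SE). That call was lost without each control (0.49 to 0.58) and without knockout 2 (0.40). Cltc, Rab11a, Rab7 and Ap2a2, the most abundant, did not pass, and the median was 0.05. Of 7 genes of caveolae, membrane pits known for uptake in endothelium, 3 were higher, with a median of 0.61. Cavin3 had 231.1 and 166.7 CPM in knockout and 71.2, 87.3 and 82.1 CPM in control (1.31 ± 0.16), Ehd2 was at 0.94 ± 0.18 and Cavin1 at 0.62 ± 0.12. Cav1, the main caveolin gene and also 1 of the 7 ceiling markers, had 1078.1 and 933.6 CPM in knockout and 552.0, 809.4 and 612.2 CPM in control, at 0.61 ± 0.17, and did not pass. Without control 3 Cavin3 (1.32), Ehd2 (0.92) and Cavin1 (0.62) lost their calls. Without control 1 or 2 Ehd2 (0.82 and 1.09) and Cavin1 (0.53 and 0.72) lost theirs, as did Ehd2 without knockout 1 (0.70) and Cavin1 without knockout 2 (0.58). With the length and GC offset Ccl7, Arrb1, Cltb and Cavin1 also lost their calls.

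**Figure D5:**
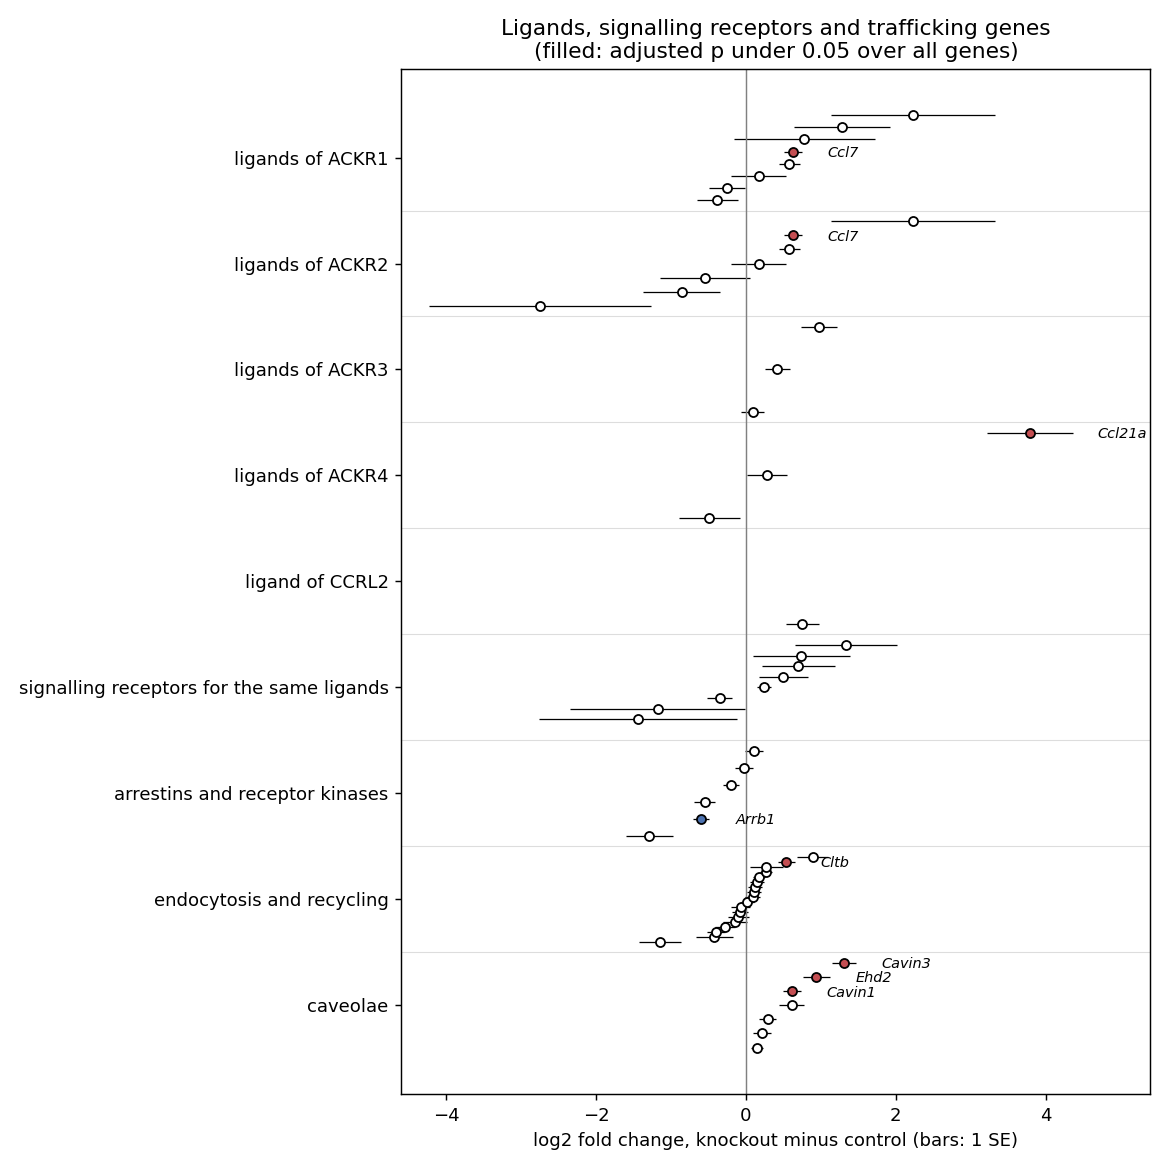
Log2 fold change, knockout minus control (horizontal axis, bars of 1 SE), of tested ligands, signalling receptors and trafficking genes by list; genes with filled points passed at adjusted p 0.05. Ccr2, with 0 reads in knockout, is not drawn, and Ccl7 appears in 2 lists. Named points lie right of 0 except Arrb1.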

How the data were processed

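Per the labels' protocols, CD45- TER119- CD31+ podoplanin+ cells were sorted, and 4 ng of total RNA was amplified by SMART-Seq v4 (10 cycles), tagmented with Nextera XT (12 cycles) and read as single 50-base reads. Per the file headers, the authors deposited raw read counts for each Ensembl gene. TopHat2 2.0.14, Bowtie2 2.1.0, HTSeq 0.6.1 and build mm10 are named, per the submitters' processing notes. Settings and the handling of shared reads: not given in the sources used here. PCR copies could not be told from separate molecules, so a read count is not a count of molecules. The intervals reflect the spread between these libraries only.

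Of 27843 identifiers, 27648 matched a symbol. The test was run in R 4.3.3 by edgeR 4.0.16 (filterByExpr with minimum count 10, TMM, robust legacy quasi-likelihood F test, Benjamini-Hochberg over 15874 genes, threshold 0.05). SE is the log2 fold change over the square root of F, and 95% intervals use the fit's degrees of freedom. The members, lists and alternatives were chosen with earlier results of these data known, so no list is independent support. Named list genes were those that passed and up to 4 abundant others. Cxcr4, Cmklr1, Grk3 and Ccl17 were named outside that rule. Alternatives included DESeq2 1.42.0 and limma-voom (limma 3.58.1). An exon length and GC offset was added after the data were seen.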

Additional observations from a re-analysis of the deposited data

How the results depend on the processing

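Ackr3, Ackr4 and Ackr1 kept their direction in all 15 alternatives, and all 3 passed with RLE size factors, library totals alone, a filter at 1 CPM in 2 libraries, DESeq2, limma-voom, the edgeR fit made non-robust or in its newer form, and the length and GC offset. With no filter on low counts 1 receptor passed, and Ackr3 (log2 fold change 1.36, adjusted p = 0.079) and Ackr4 (1.23, adjusted p = 0.13, edgeR) did not. With the replicate number as a block 0 receptors and 0 of all genes passed, with Ackr1 at 1.07, Ackr3 at 1.45 and Ackr4 at 1.39, and 0 genes of the fixed lists. The numbers share no stated litter or day, and control 3 has no same-numbered knockout library. Deviations of same-numbered libraries correlated at 0.048 and -0.052. With 2 knockout libraries their deviations are mirror images, so these values cannot show whether the numbers mark pairs. With a library left out, the log2 fold change spanned 0.72 to 1.48 for Ackr1, 0.01 to 0.23 for Ackr2, 1.15 to 1.61 for Ackr3, 0.99 to 1.44 for Ackr4 and -0.46 to 0.00 for Ccrl2, which turned sign at that upper value without knockout 1. Between 0 and 2 receptors then passed, 11 to 1736 genes of the whole table and 0 to 11 of the listed genes. Without a control these were 11 to 266 genes and 0 to 2 listed genes, and the upper ends of both gene counts come from fits with 1 knockout library, which take their spread from the controls alone. Among all genes 1150 passed, against 2662 with DESeq2 and 756 under that offset. Of the listed genes 8 passed, against 17 with DESeq2 and 5 with the offset. Counts per list stayed within 1.5 times in 201 of 270 cases. Cases with 0 calls in both fits are among the 201, so this share does not show that calls were kept. The cause of the changes between settings was not tested.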
